A study of Mus musculus with 12 samples.

Results

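The 10 genes described here encode the smooth muscle type contractile apparatus that fibroblasts use when they become myofibroblasts. They were chosen by name as Acta2, Actg2, Tagln, Cnn1, Cnn2, Tpm1, Tpm2, Myh11, Myl9 and Mylk, and all 10 were found among the 21556 genes of the count table. Primary fibroblasts from abdominal skin were grown from WT mice (strain C57BL/6) and from Nox4 KO mice (strain B6.129-Nox4tm1Kkr/J, with a targeted disruption of Nox4, the gene of an NADPH oxidase that forms hydrogen peroxide). In each genotype, 3 libraries came from control cells, which received no stimulation, and 3 from cells that received TGF-β2 at 10 ng/ml for 24 h after serum starvation. All 4 groups were primary cells cultured with serum, passaged and plated before use, the age of the mice is not given for these libraries, and no source used here says whether the 3 libraries of a group came from separate mice, so that p-values measure the spread between these libraries only. Each library held between 35118344 and 43796260 counted reads.

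TGF-β drives fibroblasts towards the myofibroblast, the contractile cell that closes wounds and stiffens scars. In smooth muscle, myosin moves along actin filaments once myosin light chain kinase, switched on by calcium and calmodulin, has phosphorylated the regulatory light chain. Tropomyosin, calponin and transgelin lie on the actin filament, and the genes of this apparatus are classically driven by serum response factor (SRF) with its myocardin-related partners, which bind an element called the CArG box.

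The cells were checked against their labels before the members were read. All 8 fibroblast markers (Col1a1, Col1a2, Col3a1, Dcn, Lum, Pdgfra, Thy1 and Vim) reached a mean of at least 1 RPKM (reads per kilobase of exon, scaled to the counted reads of the library) in every group, and their summed level was 6483 to 7162 RPKM in WT control libraries against 5315 to 6320 with TGF-β2, and 6618 to 7895 against 5701 to 6546 in Nox4 KO. The ranges of this sum did not overlap within a genotype in RPKM. That separation depends on the scaling, since the tests below use TMM factors, a further scaling between libraries that RPKM leaves out. Of the 8 markers, 2 in WT and 3 in Nox4 KO were lower past the threshold used below, beside 12.3% and 15.0% of all genes tested. The 6 keratinocyte markers summed to 0.486 to 0.930 RPKM. The 4 endothelial markers went from 2.51 to 4.10 RPKM in control to 1.67 to 2.34 in stimulated WT libraries and from 3.01 to 5.38 to 2.398 to 2.86 in Nox4 KO, without overlap within a genotype in RPKM. In Nox4 KO this too depends on the scaling. The 5 macrophage markers went from 5.86 to 17.7 RPKM to 4.48 to 11.4 in WT and from 4.22 to 13.3 to 2.98 to 8.63 in Nox4 KO, with overlap. Of the 8 pericyte and vascular smooth muscle markers 4 reached a mean of 1 RPKM in each group, and their sum was 59.9 to 95.2 RPKM in control libraries against 125.7 to 162.8 RPKM in stimulated ones. Mcam and Cspg4 made up the higher sum, with WT means going from 67.4 to 99.4 RPKM and from 6.84 to 30.5 RPKM, while the WT means of Notch3 (4.42 to 1.04 RPKM), Des, Rgs5, Kcnj8 and Abcc9 were lower with TGF-β2, the last 3 of these under 1 RPKM throughout, and Higd1b was at or near 0. In bulk RNA, fewer cells of a type and less RNA per cell cannot be told apart, and the part of any of these cell types in the results was not tested. Nox4 received 203 to 398 reads in WT control, 102 to 207 in Nox4 KO control, 1314 to 2471 in stimulated WT and 782 to 1175 in stimulated Nox4 KO cells. Counts per gene cannot tell which exons were transcribed. The genotype labels rest on the submitters, whose methods report a PCR check of the genotype of the mice and of the fibroblast cultures.

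One library stood apart for these genes. The second WT library with TGF-β2 was the highest of its group for 9 of the 10 members, all but Myh11. In that library the genes with exons of at most 1.5 kb deviated from their group mean by 0.58 more on the log2 scale than genes of at least 5 kb, while the same difference was between -0.38 and 0.08 in the other 11 libraries. The third WT control library was the lowest of its group for 9 members and the third Nox4 KO control library for 8, whereas the third Nox4 KO library with TGF-β2 was the highest of its group for 8. In the map of these deviations the members of a library mostly share a colour, so that the spread within a group was largely shared by these genes. It was not shared by all genes. In the second WT library with TGF-β2, Myh9 was at 261.4 RPKM against 464.4 and 437.7 in the other stimulated WT libraries. Flna was at 391.1 against 573.0 and 624.6 RPKM there.

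**Figure D1:**
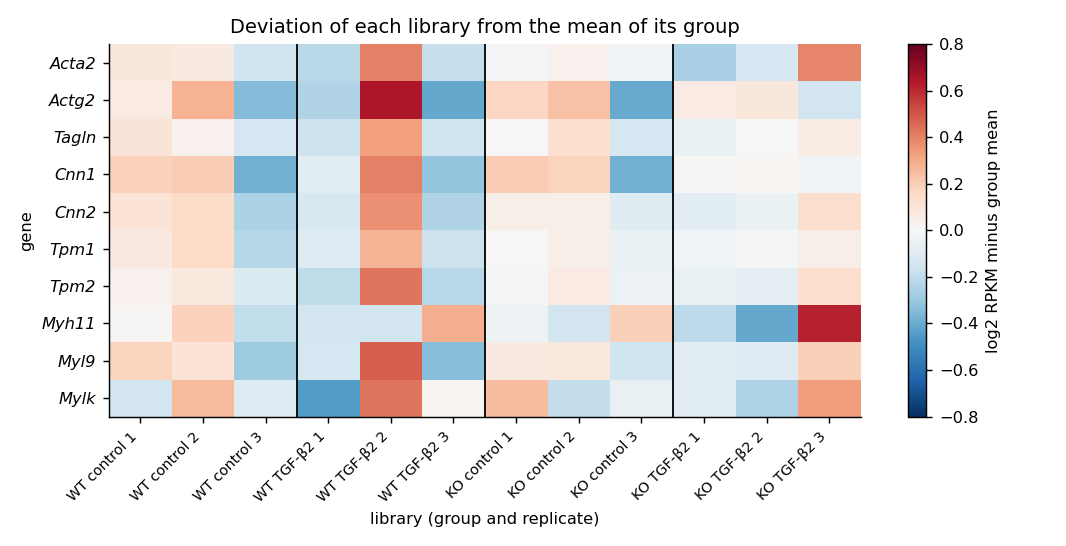
Deviation of the log2 RPKM of each of the 10 genes (rows) from the mean of its group in each of the 12 libraries (columns, by group and replicate). Red marks values above the group mean and blue values below it. The second WT library with TGF-β2 is red for 9 of the 10 genes.

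In unstimulated fibroblasts the apparatus was already transcribed at a very high level. Acta2, which encodes the α-smooth muscle actin used to recognise myofibroblasts, had the highest RPKM of all 21556 genes in WT control, and Tagln, an actin-bundling protein also called SM22α, ranked 3. Myl9, the regulatory light chain, ranked 18, Tpm2 40, Tpm1 50, Cnn2 73, Cnn1 89 and Actg2 113. Myh11, the smooth muscle myosin heavy chain, and Mylk, the light chain kinase, stood far lower at ranks 1396 and 1787. Together the 10 genes took 2.39% to 4.05% of all counted reads of a library, and Acta2 alone 0.96% to 1.73%.

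**Figure D2:**
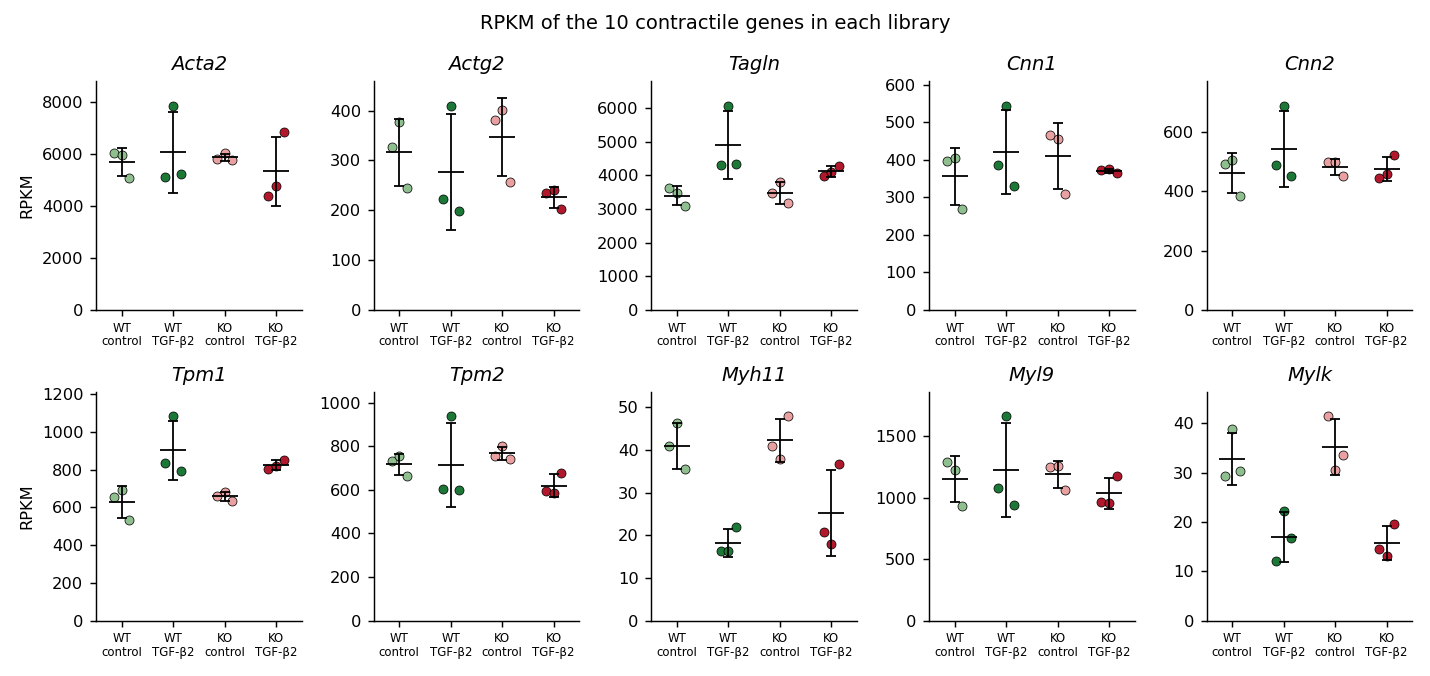
RPKM of the 10 genes (vertical axes, starting at 0 and scaled per gene) in the 12 libraries, with 3 points per group in the order of their replicate numbers, the group mean as a line and the SD as bars. Tpm1 and Tagln lie higher in every stimulated library than in every control library of the same genotype, and Myh11 and Mylk lie lower.

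Acta2 showed no change with TGF-β2 that could be told from the spread between libraries. Its RPKM was 6016, 5945 and 5066 in the 3 WT control libraries and 5094, 7853 and 5232 in the 3 WT libraries with TGF-β2. The mean went from 5675 ± 529 to 6060 ± 1555 RPKM (SD, n = 3 each), with overlapping libraries. In Nox4 KO, Acta2 was at 5816, 6013 and 5772 RPKM in control and at 4366, 4757 and 6836 RPKM with TGF-β2. Again the groups overlapped, because the third stimulated library was the highest of the 6 and the other two the lowest. The log2 fold change was 0.13 in WT (95% interval -0.41 to 0.66, adjusted p = 0.711) and -0.06 in Nox4 KO (-0.56 to 0.44, adjusted p = 0.854), by the quasi-likelihood test of edgeR, adjusted after Benjamini and Hochberg over all genes tested, the test used for every adjusted p-value below unless another is named. Without the second WT library with TGF-β2 the WT value became -0.09 (adjusted p = 0.771). The WT interval reached from a level 1.33 times lower to one 1.58 times higher, and a change within it was not detectable at this spread.

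Actg2, the γ-smooth muscle actin of the gut and bladder, is the closest member to Acta2, and reads were told apart by bases such as those of the last 51 coding bases of the 2 genes. They are shown with Acta1, the skeletal muscle actin that is treated below as a paralog. Capitals mark bases that differ from Acta2 (GENCODE annotation of GRCm38, all on the minus strand, at chr19:34241670-34241720, chr6:83512988-83513038 and chr8:123892012-123892062).
Acta2: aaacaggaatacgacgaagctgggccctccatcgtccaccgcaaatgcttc
Actg2: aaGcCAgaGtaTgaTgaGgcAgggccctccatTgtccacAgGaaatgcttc
Acta1: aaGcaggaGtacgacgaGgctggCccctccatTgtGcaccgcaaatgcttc
Of these 51 bases 11 differed in Actg2 and 6 in Acta1. Over the whole coding sequence Actg2 was 84.2% and Acta1 85.4% identical to Acta2, and no identical stretch was longer than 29 bases. Of the windows of 50 bases in the transcripts, 0.326% of those of Acta2 and none of the 1592 of Actg2 occurred in a transcript of another gene, against 45.6% of those of Actg1, a cytoplasmic actin with many pseudogenes, whose reads were discarded where they mapped to more than 1 place.

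Actg2 was at 326.5, 377.4 and 245.0 RPKM in WT control and at 222.0, 410.1 and 197.6 RPKM in WT with TGF-β2, groups that overlapped (log2 fold change -0.17, adjusted p = 0.718). In Nox4 KO it was at 381.7, 401.1 and 257.4 RPKM in control and at 235.4, 239.9 and 202.2 RPKM with TGF-β2. In RPKM all 3 stimulated Nox4 KO libraries were below all 3 control libraries. The log2 fold change was -0.54 (95% interval -0.997 to -0.08, adjusted p = 0.0783). With the replicate number as a block, which the Nox4 KO libraries bear, it was -0.51 with an adjusted p of 0.00719, past the threshold of 0.05, and it also passed without the third Nox4 KO control library (-0.72, adjusted p = 0.0130).

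The members that lie along the actin filament gave the only rise past the threshold. Tpm1 encodes a tropomyosin, the coiled coil that runs along the filament and stabilises it. Its RPKM was 655.4, 695.4 and 532.4 in WT control and 834.8, 1084 and 795.7 in WT with TGF-β2. The Nox4 KO libraries were at 660.9, 681.4 and 634.9 in control and at 805.6, 818.6 and 853.7 with TGF-β2. Every stimulated library was thus above every control library in both genotypes. The log2 fold change was 0.41 in Nox4 KO (SE 0.09, 95% interval 0.19 to 0.63, adjusted p = 0.0214), a 1.33-fold rise. In WT it was 0.56 (SE 0.18, 0.13 to 0.99), with an adjusted p of 0.0667 that missed the threshold. In the Nox4 KO fit without the first control library, the first stimulated library or the second stimulated library, the adjusted p was 0.0747, 0.0623 and 0.0896.

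Tagln was at 3629, 3458 and 3086 RPKM in WT control and at 4311, 6070 and 4342 RPKM in WT with TGF-β2. Its Nox4 KO values were 3463, 3813 and 3168 RPKM in control and 3968, 4103 and 4281 RPKM with TGF-β2. The stimulated libraries lay above the control libraries in both genotypes, yet neither log2 fold change passed, at 0.57 in WT (SE 0.19, adjusted p = 0.0709) and 0.33 in Nox4 KO (SE 0.13, adjusted p = 0.1002). With the replicate block the Nox4 KO value was 0.33 with an adjusted p of 0.0417. Tagln (chr9:45929619-45936058, GRCm38) shares 94 of its 1624 exonic bases with Pcsk7 on the opposite strand, and the annotation places the antisense gene Gm48529 within it. Of its windows of 50 bases 47.6% occur in transcripts of these genes. Since the use of the strand in counting is not stated, reads of Tagln and of these genes cannot be told apart there. Pcsk7 itself was at 9.77 to 12.2 RPKM in all libraries.

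The other thin filament members did not pass in either genotype. Tpm2, the β-tropomyosin, was at 731.8, 754.5 and 664.5 RPKM in WT control and at 605.1, 937.7 and 598.9 RPKM with TGF-β2 (log2 fold change 0.03, adjusted p = 0.930). In Nox4 KO its stimulated libraries, at 593.7, 586.6 and 678.2 RPKM, lay below the control libraries at 757.0, 801.0 and 743.4 RPKM, with a log2 fold change of -0.22 (95% interval -0.44 to -0.01, adjusted p = 0.105). Cnn1, the smooth muscle calponin, was at 396.9, 403.2 and 267.9 RPKM in WT control and at 385.5, 544.2 and 330.5 RPKM with TGF-β2. Its Nox4 KO values were 465.1, 456.2 and 309.3 RPKM in control against 372.8, 375.0 and 365.1 RPKM. Its log2 fold changes were 0.27 and -0.06 (adjusted p = 0.449 and 0.804). Cnn2, a calponin also found outside muscle, ranged from 384.1 to 505.0 RPKM in WT control, from 451.3 to 688.4 RPKM in WT with TGF-β2, from 451.5 to 498.3 RPKM in Nox4 KO control and from 445.6 to 522.3 RPKM in Nox4 KO with TGF-β2. The groups of Cnn1 and Cnn2 overlapped in both genotypes. Without the third Nox4 KO control library the Cnn1 value in Nox4 KO was -0.24 with an adjusted p of 0.0473.

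Of the motor genes, Myh11 (chr16:14194535-14291372, minus strand) fell past the threshold in WT. Its RPKM was 40.9, 46.3 and 35.6 in WT control against 16.3, 16.3 and 22.0 with TGF-β2, and in Nox4 KO it was 40.9, 37.9 and 47.9 in control against 20.7, 18.0 and 36.8. In RPKM no stimulated library reached the lowest control library of its genotype. In Nox4 KO this depends on the scaling, as the third stimulated library was at 36.8 RPKM and the lowest control at 37.9 RPKM. The TMM factors of these libraries, which the tests use and RPKM leaves out, were 0.968 and 1.03. The log2 fold change in WT was -1.13 (SE 0.17, 95% interval -1.53 to -0.73, adjusted p = 0.00523), which corresponds to a level 2.19 times lower. The Nox4 KO value was -0.66 (SE 0.27, -1.31 to -0.02, adjusted p = 0.108). With the replicate block the Nox4 KO value was -0.73 with an adjusted p of 0.0101, and without the third stimulated library it was -1.03 with an adjusted p of 0.00514.

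Myl9, whose phosphorylation switches the motor on, did not differ beyond its spread. It was at 1289, 1228 and 934.6 RPKM in WT control and at 1079, 1661 and 940.3 RPKM in WT with TGF-β2. Nox4 KO cells had 1247, 1260 and 1063 RPKM in control and 967.5, 957.6 and 1175 RPKM with TGF-β2. The groups overlapped, with log2 fold changes of 0.12 (95% interval -0.45 to 0.69, adjusted p = 0.735) and -0.12 (-0.41 to 0.17, adjusted p = 0.475).

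Mylk, the kinase that phosphorylates Myl9, fell in both genotypes. Its RPKM was 29.3, 38.8 and 30.4 in WT control against 12.1, 22.2 and 16.7 with TGF-β2. The Nox4 KO control libraries were at 41.4, 30.6 and 33.5 against 14.5, 13.1 and 19.6 with TGF-β2. No stimulated library overlapped a control library of its genotype. The log2 fold change was -0.92 in WT (SE 0.22, 95% interval -1.44 to -0.39, adjusted p = 0.0270) and -1.08 in Nox4 KO (SE 0.18, -1.51 to -0.64, adjusted p = 0.00967), levels 1.89 and 2.11 times lower. In WT the call was lost when any library other than the second stimulated one was left out, with adjusted p between 0.0548 and 0.0833, whereas in Nox4 KO it passed in all 6 such fits. The annotation places the antisense genes E130310I04Rik and Gm21691 within or across Mylk, and 4.14% of its windows of 50 bases occur in them.

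**Figure D3:**
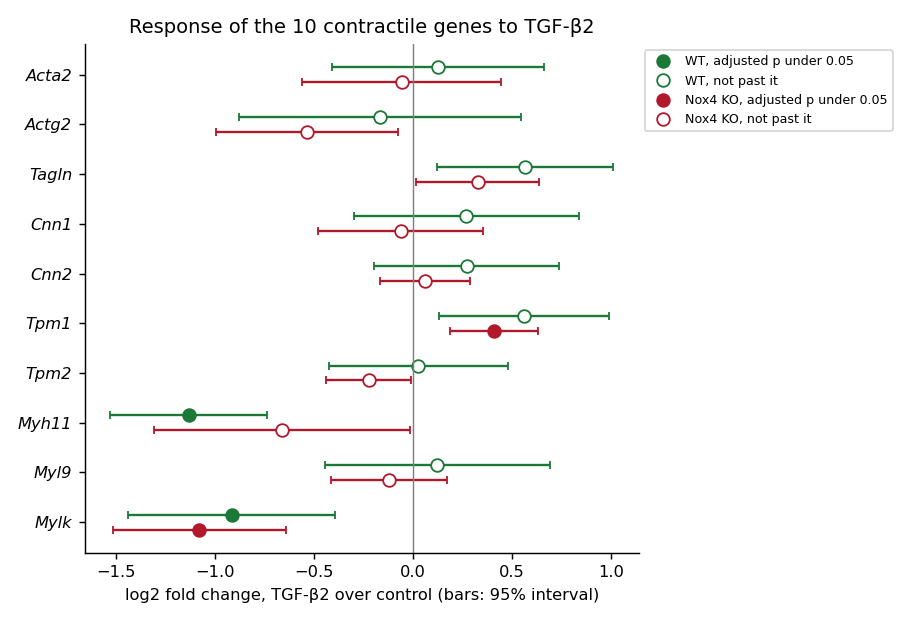
log2 fold change of the 10 genes, TGF-β2 over control, with 95% intervals, in WT (green) and Nox4 KO (red). Filled points passed an adjusted p under 0.05, namely Myh11 in WT, Tpm1 in Nox4 KO and Mylk in both, and the intervals of the genotypes overlap for every gene.

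By count, TGF-β2 raised 0 and lowered 2 of the 10 members in WT (Myh11 and Mylk), where 22.9% of the 10743 genes tested passed, 10.6% higher and 12.3% lower. An unadjusted p under 0.05 was found for 4 of the 10 members in WT, beside 37.8% of all genes, and for 6 in Nox4 KO, beside 43.9%. In Nox4 KO it raised 1 (Tpm1) and lowered 1 (Mylk), where 30.3% of the 10809 genes tested passed, 15.2% higher and 15.0% lower. With a fold of at least 2 required as well, 1 member passed in each genotype, against 7.74% and 6.82% of all genes. The stimulated libraries did not overlap the control libraries for 4 members in WT (Tagln, Tpm1, Myh11 and Mylk), where 45.2% of all genes did not (20.3% higher and 24.9% lower), and for 6 in Nox4 KO (those 4, Actg2 and Tpm2), where 48.5% did not (17.0% higher and 31.5% lower). These shares are near the background of all genes, and the median log2 fold change of the members, 0.13 in WT and -0.09 in Nox4 KO, stood beside 0.00 and -0.01 over all genes tested. Overlap, for members and for all genes, was read in RPKM and so not on the scale of the tests. The TMM factors of the tests were 0.956 to 0.968 in stimulated and 1.03 to 1.07 in control Nox4 KO libraries. In Nox4 KO the separation of Actg2, Tpm2 and Myh11 depends on this scaling. The count depended on the tool. DESeq2 passed 4 members in WT (Tagln and Tpm1 in addition), beside 31.5% of all genes, and 6 in Nox4 KO, beside 37.7%, and in Nox4 KO the replicate block passed 5 (Actg2, Tagln, Tpm1, Myh11 and Mylk), where 54.0% of all genes passed.

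As the 2 genotypes gave no difference past the threshold, a fit added after the data were seen took one TGF-β2 effect over all 12 libraries. There Tagln (log2 fold change 0.44, 95% interval 0.20 to 0.69, adjusted p = 0.00636) and Tpm1 (0.48, 0.27 to 0.70, adjusted p = 0.00193) were higher with TGF-β2. Myh11 (-0.90, -1.28 to -0.52, adjusted p = 0.00141) and Mylk (-0.999, -1.33 to -0.67, adjusted p = 0.000222) were lower. Acta2 was at 0.03 (-0.29 to 0.35, adjusted p = 0.872) and Myl9 at 0.00 (-0.31 to 0.31, adjusted p = 0.997). In that fit 45.4% of all genes tested passed, against 4 of the 10 members.

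Levels set against Acta2 within the same library do not depend on the scaling between libraries. This measure was chosen after the data were seen and is given as a description. Tagln had 58.2% to 60.9% of the RPKM of Acta2 in WT control and 77.3% to 84.6% with TGF-β2. In Nox4 KO it had 54.9% to 63.4% in control and 90.9%, 86.3% and 62.6% in the 3 stimulated libraries, so that the third fell within the control range. Tpm1 went from 10.5% to 11.7% of Acta2 up to 13.8% to 16.4% in WT, and from 11.2% ± 0.2 to 16.1% ± 3.1 in Nox4 KO (SD, n = 3 each), without overlap. Mylk went from 0.58% ± 0.08 to 0.28% ± 0.04 of Acta2 in WT and from 0.60% ± 0.10 to 0.30% ± 0.03 in Nox4 KO (SD, n = 3 each), with no overlap in either genotype. Myl9 lay close to one proportion in all 4 groups, with means of 20.2% ± 1.5 and 20.1% ± 1.8 of Acta2 in WT control and stimulated cells and of 20.3% ± 1.6 and 19.8% ± 2.5 in Nox4 KO. Of the other members, Myh11 was lower against Acta2 without overlap in both genotypes. Cnn2 was higher and Tpm2 lower without overlap in WT alone, and Actg2 and Cnn1 overlapped in both genotypes.

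The composition of each gene family was compared by the share of each gene in the summed RPKM of the family. Among the tropomyosins Tpm1, Tpm2, Tpm3 and Tpm4, the share of Tpm1 went from 30.0% ± 1.5 in WT control to 39.1% ± 0.6 with TGF-β2 and from 30.3% ± 0.7 to 39.6% ± 1.1 in Nox4 KO (SD, n = 3 each), and that of Tpm2 from 34.4% ± 1.0 to 30.5% ± 2.6 and from 35.3% ± 0.3 to 29.6% ± 1.0. Neither share overlapped between stimulated and control libraries in either genotype, and the exact two-sided permutation p was 0.1 for each, the smallest that 3 libraries against 3 allow. Among the actins, Acta2 held 70.0% ± 2.4 in WT control and 64.1% ± 1.7 with TGF-β2, without overlap, and 69.0% ± 1.8 and 63.1% ± 5.9 in Nox4 KO, with overlap. Actb, the cytoplasmic β-actin, held most of the rest, and Acta1 went from 0.78% to 4.32% in WT and from 1.07% to 5.39% in Nox4 KO. Among the nonsarcomeric myosin heavy chains Myh11 held 7.62% ± 0.14 in WT control and 4.29% ± 1.1 with TGF-β2, without overlap, and 7.88% ± 2.13 and 4.78% ± 2.11 in Nox4 KO, with overlap (exact two-sided permutation p = 0.3, n = 3 each). Myl9 held 81.8% to 84.2% of the light chains on average in every group, and the Cnn1 share of the calponins was 34.2% to 36.2%, with overlap in both genotypes. Reads that fit more than 1 place were discarded. Windows of 50 bases found in another gene's transcript made up 45.6% in Actg1, 40% in Tpm3, 26% in Cnn3 and 24.5% in Myl12a. They made up 22.4% in Myl12b, 16.1% in Tpm4 and 12.2% in Actb, and Tpm1, Tpm2, Cnn1, Cnn2 and Myl9 had none. The shares of the first 7 genes may thus be too low, and those of the members in the same families too high.

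**Figure D4:**
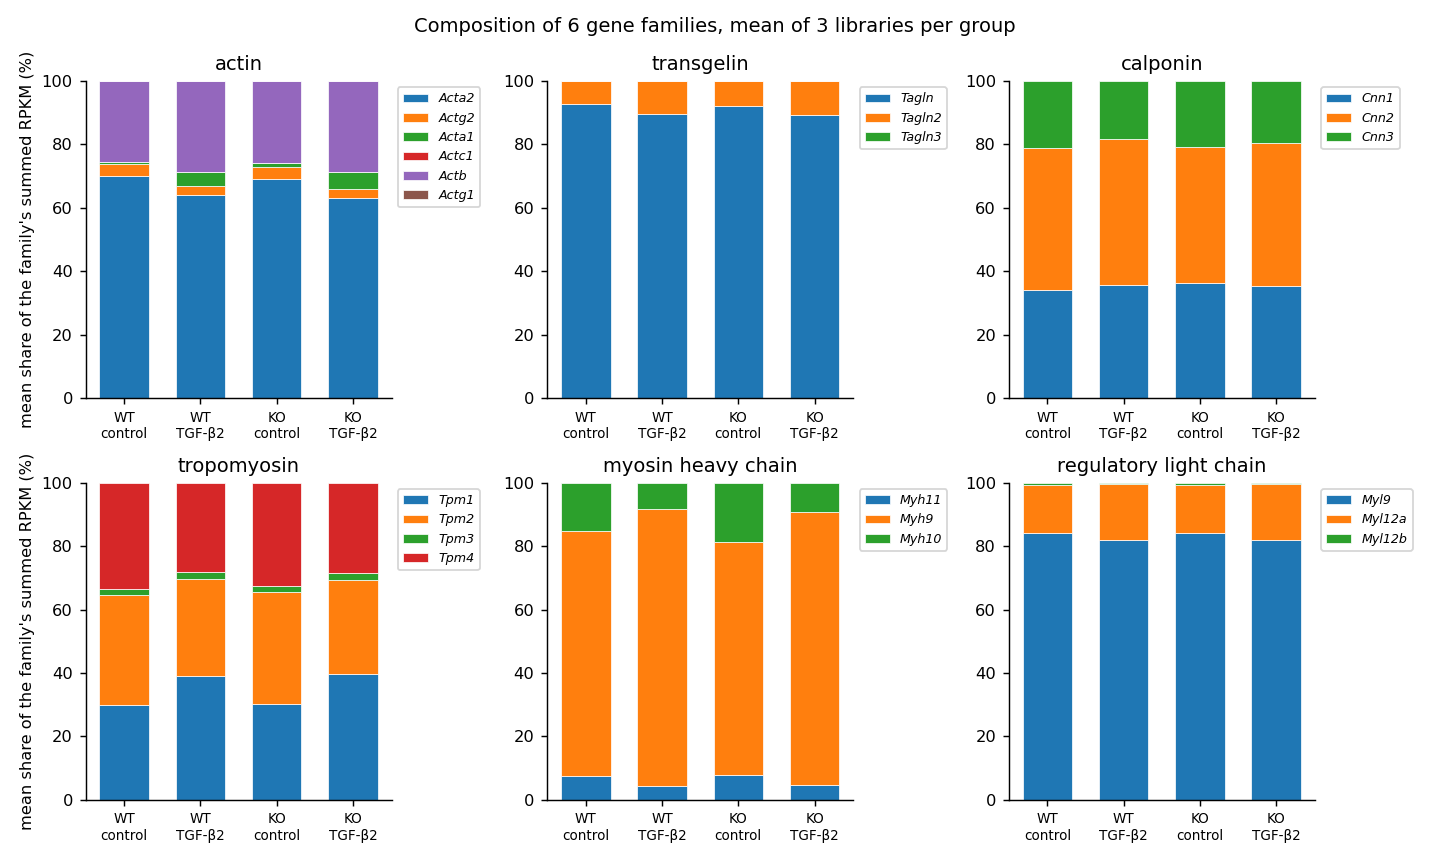
Mean share (%) of each gene in the summed RPKM of its family in the 4 groups (3 libraries each) for actins, transgelins, calponins, tropomyosins, nonsarcomeric myosin heavy chains and regulatory light chains. Tpm1 goes from 30.0% to 39.1% in WT and from 30.3% to 39.6% in Nox4 KO of the tropomyosins, while the Cnn1 share of the calponins overlaps between control and stimulated libraries.

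Nox4 KO and WT cells were compared at the same stimulation to ask whether the contractile genes depended on Nox4. In control cells, 0 of the 10 members passed by edgeR's quasi-likelihood test, 0 by DESeq2, and 0 had an unadjusted p under 0.05, where 0.0% of the 10767 genes tested passed by edgeR, 28 genes by DESeq2, and 596 had an unadjusted p under 0.05. The log2 differences, Nox4 KO minus WT, lay between 0.00 for Tagln and 0.16 for Cnn1. Acta2 was at 0.01 (95% interval -0.48 to 0.49, adjusted p = 0.998), and no member had groups without overlap, against 13.6% of all genes (10.9% higher and 2.74% lower in Nox4 KO). Without the third WT control library all 9 positive differences turned negative. After TGF-β2, 0 of the 10 passed by either tool, 0 had an unadjusted p under 0.05, and 0.0% of the 10439 genes tested passed, with 16 genes by DESeq2 and 336 at an unadjusted p under 0.05. The log2 differences lay between -0.26 for Actg2 and 0.48 for Myh11 (95% interval -0.19 to 1.16, adjusted p = 0.835), 9 of the 10 were negative, and Acta2 was at -0.16 (-0.73 to 0.41, adjusted p = 0.850). All 3 Nox4 KO libraries were below all 3 WT libraries for 1 member, Tagln (-0.23, adjusted p = 0.835), where 10.1% of all genes did not overlap (4.16% higher and 5.92% lower in Nox4 KO). Without the second WT library with TGF-β2, 8 of these 9 negative differences were positive.

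The test of the difference between the responses, over all 12 libraries, likewise passed 0 of the 10 members by edgeR's quasi-likelihood test and 0 by DESeq2, with 0 at an unadjusted p under 0.05, where 0.0% of the 10890 genes tested passed, with 6 genes by DESeq2 and 290 at an unadjusted p under 0.05. The differences, Nox4 KO response minus WT response on the log2 scale, lay between -0.35 for Actg2 and 0.48 for Myh11 (95% interval -0.27 to 1.23, adjusted p = 0.850). That of Acta2 was -0.17 (-0.83 to 0.49, adjusted p = 0.910), an interval that reached to a response 1.77 times weaker and 1.41 times stronger in Nox4 KO. The fall of Myh11 past the threshold in WT alone and the rise of Tpm1 past it in Nox4 KO alone were therefore not shown to differ between the genotypes.

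Other genes of the contractile apparatus were read from a list of 25, of which 22 were tested. In WT 5 were higher (Acta1, Tagln2, Smtn, Tpm3 and Actg1) and 3 lower (Svil, Myh10 and Synpo2), and in Nox4 KO 2 were higher (Acta1 and Tpm3) and 3 lower (Svil, Myh10 and Myl12b), beside the 22.9% and 30.3% of all genes that passed. With the replicate block 11 of the 22 passed in Nox4 KO, 6 of them higher (Tagln2, Smtn, Myh9 and Actn1 in addition) and 5 lower (Des and Vcl in addition), beside 54.0% of all genes. Acta1 changed most. It was at 59.0, 95.3 and 41.0 RPKM in WT control and at 367.7, 612.6 and 274.4 RPKM with TGF-β2, and at 102.8, 84.9 and 84.7 against 565.7, 466.4 and 253.7 RPKM in Nox4 KO. The stimulated libraries lay far above the control libraries in both genotypes. Its log2 fold change was 2.71 in WT (SE 0.41, adjusted p = 0.00565) and 2.33 in Nox4 KO (SE 0.30, adjusted p = 0.00522). Of the defining regulators of skeletal muscle, Myf5 had 0 counts in all 12 libraries, which allows up to 3 counts in each, and Myog had at most 1, and Acta1 was the only one of the 8 skeletal muscle markers whose mean reached 1 RPKM in any group. Tagln2, a transgelin found outside muscle, had a log2 fold change of 1.10 in WT (adjusted p = 0.0334) and 0.79 in Nox4 KO (adjusted p = 0.110), or 0.83 with the replicate block (adjusted p = 0.00155). Svil, which encodes the actin- and myosin-binding supervillin, fell by 1.58 and 1.17 on the log2 scale (adjusted p = 0.00364 and 0.00209). Myh10, a nonmuscle myosin heavy chain, had values of -1.15 in WT and -0.96 in Nox4 KO (adjusted p = 0.0123 and 0.0219), in the same direction as Myh11, while Myh9 was at -0.05 and 0.26 (adjusted p = 0.896 and 0.256, the latter 0.0439 with the block).

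Of the regulators of SRF and smooth muscle genes more passed as higher than as lower. Of 17 listed, 16 were tested. In WT 4 were higher (Csrp2, Srf, Elk3 and Mrtfa) and 1 lower (Klf4), beside 10.6% of all genes tested that were higher and 12.3% that were lower. In Nox4 KO 6 were higher (Csrp2, Tead4, Srf, Elk3, Mrtfa and Elk4) and 2 lower (Klf4 and Tead2), beside 15.2% and 15.0%. With the replicate block Tead1 (adjusted p = 0.0204) also passed as higher in Nox4 KO, and Foxo4 (0.0376) and Csrp1 (0.0450) as lower, beside 54.0% of all genes. The balance of higher and lower was not tested. Srf itself had a log2 fold change of 0.94 in WT (adjusted p = 0.00555) and 0.72 in Nox4 KO (adjusted p = 0.00225). Mrtfa, its actin-sensing cofactor, was at 0.40 and 0.47 (adjusted p = 0.0279 and 0.00435). Csrp2, a LIM protein that binds SRF complexes, was at 1.58 and 1.25 (adjusted p = 0.00539 and 0.0447). Klf4, a repressor of smooth muscle genes, was at -1.25 and -1.35 (adjusted p = 0.00555 and 0.0352). Myocd, the gene of myocardin, did not reach 1 RPKM in any group. The known TGF-β targets Smad7, Skil and Ccn2 were higher past the threshold in both genotypes, with log2 fold changes of 0.74 to 1.57 in WT and 0.81 to 1.59 in Nox4 KO.

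**Figure D5:**
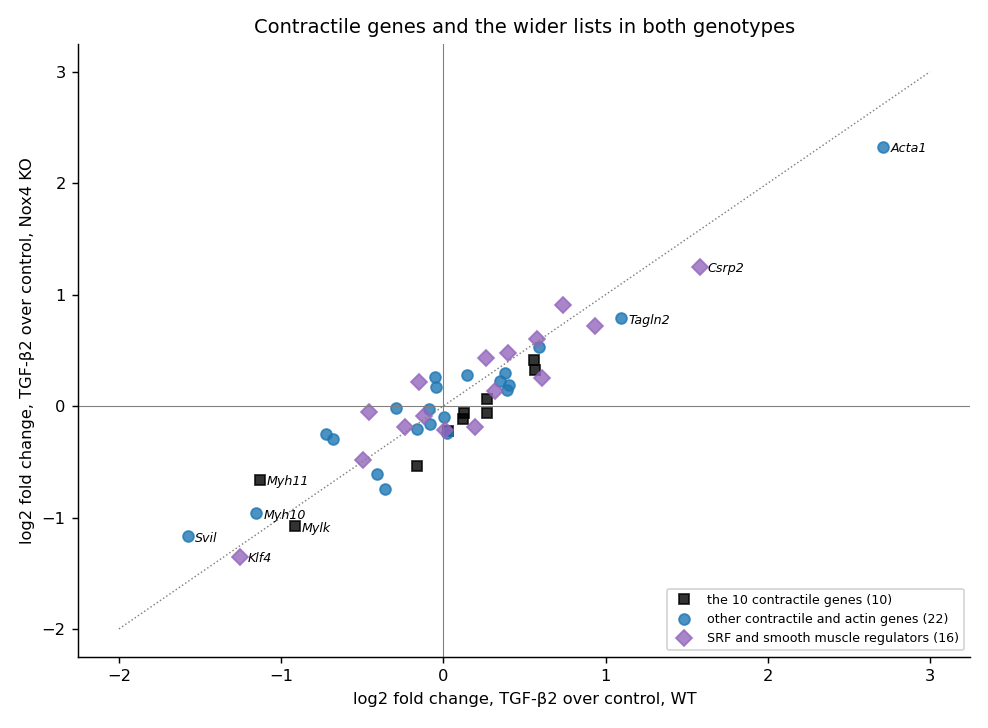
log2 fold change with TGF-β2 in WT (horizontal) and Nox4 KO (vertical) of the 10 contractile genes and of 2 wider lists, with a dotted line of equality. Names mark genes beyond 1 in either genotype, and Acta1, at 2.71 and 2.33, lies farthest from 0.

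The start sites of the members were read for the elements that SRF and its partners use. RefSeq promoter windows of 300 bases (250 before and 50 after the start, GRCm38) were found for 7 members and not for Actg2, Tagln and Myh11. On either strand, a CArG box (CC, 6 bases that are each A or T, then GG) was found in 1.63% of all 32851 windows, one with 1 other base among the 6 in 9.98%, the TEAD element CATTCC in 14.7% and the SMAD elements GTCTAG in 8.37% and CAGAC in 49.6%. The looser box includes the strict one. Myl9 and Cnn2 held a strict box, at -161 and -56 from the start, Myl9 held another of the looser kind at -99, and Acta2 held 2 of the looser kind, at -84 and -34. The windows of these 3, which hold the box, and of Tpm1 and Mylk, which passed the threshold, are shown with boxes and CATTCC (or its complement GGAATG) in capitals.
Acta2, chr19:34255324-34255623, minus strand: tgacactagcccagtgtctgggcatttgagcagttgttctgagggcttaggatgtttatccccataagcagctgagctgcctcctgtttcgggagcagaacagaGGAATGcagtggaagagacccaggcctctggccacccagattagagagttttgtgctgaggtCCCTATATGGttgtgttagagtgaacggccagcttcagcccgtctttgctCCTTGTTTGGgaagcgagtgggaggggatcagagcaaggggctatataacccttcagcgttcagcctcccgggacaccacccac
Myl9, chr2:156775214-156775513, plus strand: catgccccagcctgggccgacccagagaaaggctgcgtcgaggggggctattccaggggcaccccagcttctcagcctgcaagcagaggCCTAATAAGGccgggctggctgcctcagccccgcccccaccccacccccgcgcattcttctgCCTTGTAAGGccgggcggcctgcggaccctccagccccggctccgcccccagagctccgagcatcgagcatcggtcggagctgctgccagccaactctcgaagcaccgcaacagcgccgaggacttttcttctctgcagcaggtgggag
Cnn2, chr10:79988350-79988649, plus strand: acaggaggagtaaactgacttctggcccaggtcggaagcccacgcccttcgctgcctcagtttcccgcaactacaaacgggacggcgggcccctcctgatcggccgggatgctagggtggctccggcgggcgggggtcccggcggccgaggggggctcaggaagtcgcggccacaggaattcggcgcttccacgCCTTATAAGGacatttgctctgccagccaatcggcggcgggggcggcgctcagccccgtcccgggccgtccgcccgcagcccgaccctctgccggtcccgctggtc
Tpm1, chr9:67049164-67049463, minus strand: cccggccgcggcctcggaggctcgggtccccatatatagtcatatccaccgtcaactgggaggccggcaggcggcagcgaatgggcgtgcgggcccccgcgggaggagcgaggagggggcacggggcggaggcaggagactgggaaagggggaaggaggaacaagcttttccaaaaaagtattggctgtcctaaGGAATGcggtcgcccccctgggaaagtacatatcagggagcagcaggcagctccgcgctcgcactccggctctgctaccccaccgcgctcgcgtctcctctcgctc
Mylk, chr16:34784700-34784999, plus strand: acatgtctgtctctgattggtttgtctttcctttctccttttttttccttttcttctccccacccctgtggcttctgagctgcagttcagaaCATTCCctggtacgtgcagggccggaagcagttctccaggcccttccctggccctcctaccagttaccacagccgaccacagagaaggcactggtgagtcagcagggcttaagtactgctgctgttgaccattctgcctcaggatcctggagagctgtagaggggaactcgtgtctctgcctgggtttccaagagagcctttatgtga
The window of Mylk lies inside the annotated gene, which spans chr16:34745210-35002420, and it is the start of one of its transcripts. Tpm1 held CATTCC at -56 and Mylk at -158, and neither held a box, while Acta2 held CATTCC at -146 besides its boxes. Cnn1 and Tpm2 held none of the boxes and no CATTCC. Of the SMAD elements, which are not marked in the sequences, CAGAC was found in Acta2 at -235, Cnn1 at 28 and Mylk at -246. GTCTAG was found in no window of a member. A match is only a match of letters, and binding was not measured.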

How the data were processed

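RNA of 12 libraries was read with Illumina's CASAVA 1.8.2, mapped to GRCm38 with STAR 2.4 and counted with featureCounts 1.4.6, per the labels and the study's methods. The authors discarded reads with more than 1 location and deposited raw counts over merged exons of protein-coding isoforms, with no normalization. Whether counting used the strand is not stated. Groups and replicate numbers came from the labels.

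Lengths came from GENCODE M21 and gave RPKM. Each comparison was fitted on its own 6 libraries, the interaction on 12, with edgeR 4.0.16 (TMM, quasi-likelihood test, R 4.3.3), keeping genes with a mean of at least 1 RPKM in at least 1 group. A gene passed at a Benjamini-Hochberg adjusted p under 0.05. Fold changes use TMM scaling and can differ from RPKM ratios. The members and lists were chosen with earlier results of these data known. The named genes are all members, Nox4, the TGF-β targets, and list genes that passed or are paralogs of members. Another list and another target gene are not reported here. DESeq2 1.42.0, other scalings, filters, tests and blocks, and leaving out each library were the alternatives. The procedures were checked on simulated counts. Same-numbered Nox4 KO libraries deviated together from their group means (r = 0.773, 0.684 and 0.748 over 10890 genes), so the numbers pair these libraries. The pairing comes from this check alone. In the smallest library, the limit of 3 counts equals 0.0427 RPKM for 2 kb of exon. Limits and intervals on counts cover counting error only.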

Additional observations from a re-analysis of the deposited data

How the results depend on the processing

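No member passed between the genotypes or in the test of the difference of responses under any alternative, and Myh11 in WT and Mylk in both genotypes passed in each of the 11 alternatives other than a fold limit and leaving out libraries, as did Tpm1 in Nox4 KO. Of the 520 log2 values of the 10 members over all comparisons and other settings, 485 had the same direction and side of the threshold, 22 newly passed and 13 changed sign. Of the 360 with 1 library left out 302 were the same, 3 newly passed, 8 no longer passed and 47 changed sign, 22 of them between the genotypes in control. With 3 libraries a group, changes within the printed intervals were not detectable. The cause of a changed count was not tested except where fewer libraries or a fold limit made it.

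In WT, 2 members passed, and 4 did with DESeq2, the likelihood ratio test, all 12 libraries in the fit or the additive fit of both genotypes, 1 with at least 2-fold change, and 1 to 2 with 1 library left out. In Nox4 KO, also 2 passed, against 6 with DESeq2, 4 with the additive fit, library size alone or the likelihood ratio test, 1 with at least 2-fold change and 1 to 4 with 1 library left out. Library size alone shifted the median log2 fold change of all genes in Nox4 KO to -0.10.

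Of the other contractile genes, 8 passed in WT, 4 with at least 2-fold change and 3 to 8 with 1 library left out. In Nox4 KO, 5 passed, 8 with DESeq2, 12 in the additive fit, 2 with at least 2-fold change and 3 to 7 with 1 library left out. Of the SRF list, 5 passed in WT, 10 in the additive fit and 2 with at least 2-fold change, and 8 in Nox4 KO, 2 with at least 2-fold change and 3 to 8 with 1 library left out.

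With the replicate number as a block, 3 members passed in WT, Tpm1 in addition (adjusted p = 0.0273). Same-numbered WT libraries deviated together for numbers 2 and 3 (r = 0.437 and 0.532, at most -0.103 and 0.0292 with another number). Those of number 1 did not (0.0746, against 0.306), so the WT numbers pair the libraries only in part. In Nox4 KO, where all 3 numbers pair the libraries, 5 members and 11 other contractile genes passed with the block. Of the SRF list 8 passed with the block in WT, and in Nox4 KO Tead1, Foxo4 and Csrp1 passed in addition to those of the main fit. Between the genotypes and in the test of the difference of responses the block, also nested in genotype, passed 0 members.

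Sign changes with TGF-β2 were as follows. In WT, Tpm2 was at -0.10 in the additive fit and -0.00756 with library size alone, and Myl9 at -0.00057 in the additive fit. In Nox4 KO the additive fit gave 0.0636 for Acta2, 0.13 for Cnn1 and 0.0300 for Myl9, and Cnn2 was at -0.0250 with library size alone and -0.0015 with upper quartile. Between the genotypes in control, Acta2 was at -0.00017 with all 12 libraries, and Tagln at 0.0383 with library size alone, 0.0017 with no filter and 0.0361 with upper quartile, and Myh11 changed sign from 0.0018 to as low as -0.0044. With 1 library left out, the WT values ranged from -0.0853 to 0.22 for Acta2, -0.54 to 0.0263 for Actg2, -0.20 to 0.14 for Tpm2 and -0.14 to 0.28 for Myl9. In Nox4 KO they ranged from -0.27 to 0.0649 for Acta2, -0.24 to 0.0405 for Cnn1 and -0.0071 to 0.10 for Cnn2. Nox4 KO minus WT changed sign in control for all 10 members in at least 1 such fit, for example from -0.0884 to 0.0660 for Acta2, -0.0853 to 0.0733 for Tagln and -0.0214 to 0.34 for Cnn1. After TGF-β2 it did for 8, all but Tagln and Myh11, with ranges of -0.37 to 0.0338 for Acta2 and -0.44 to 0.10 for Actg2. The difference of responses did for 4, from -0.38 to 0.0252 for Acta2, -0.56 to 0.0035 for Actg2, -0.38 to 0.0149 for Myl9 and -0.33 to 0.0564 for Mylk. Leaving out the second WT library with TGF-β2 gave the lower end of the 4 WT ranges and the positive ends for Acta2 and Actg2 after TGF-β2 and in the difference of responses.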

Other observations

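Some markers of other cell states moved with TGF-β2 in these libraries. Cspg4, the NG2 proteoglycan of pericytes, had a log2 fold change of 2.19 in WT (adjusted p = 0.00592) and 1.97 in Nox4 KO (adjusted p = 0.0250) by edgeR's quasi-likelihood test. Notch3, a receptor of mural cells, moved the other way, at -2.04 and -1.43 (adjusted p = 0.00555 and 0.0177). Pdgfra, a receptor that marks fibroblasts, had the largest fall of the 8 fibroblast markers, at -3.35 and -2.98 (adjusted p = 0.000555 and 0.00131), and its RPKM went from 32.4 to 49.97 in WT control to 2.82 to 4.64 with TGF-β2. No genotype difference in these responses passed the threshold in the interaction test.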
